A study of Mus musculus with 15 samples.

Results

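Interferon-stimulated genes (ISGs) were followed across an RNA-seq series of mouse cells transformed by MLL-ENL. A list of 41 ISGs was used, and all 41 symbols were found among the 53379 gene rows of the table. The rows were picked by gene symbol alone. The cells were fetal liver cells transformed by a retrovirus carrying the MLL-ENL oncogene, and each line was 1 clone kept with 10 ng/ml IL-3. WT cells carried floxed but intact Cebpa and Cebpb. The dKO cells lacked both genes and expressed GFP. The LAPS cells were dKO cells that expressed GFP and the LAP* isoform of rat C/EBPβ. Clone C1 is given by WT, dKO and LAPS cells and clone C2 by WT and dKO cells (LAPS cells of C2 were not analysed here), and the clones came from different mice. Clone and mouse therefore cannot be told apart, and neither can the gene deletion, the passage through it and the GFP virus, which the labels do not name for WT cells. Each of the 5 groups had 3 libraries made from RNA taken at different time points, so p-values measure only the spread between these samples. Values are normalized reads, which are read counts divided by 1 size factor per library.

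The libraries held 9212237 to 13613500 reads on genes. Cebpa had 903 to 2267 normalized reads in the 6 WT libraries, was at 0 in 8 of the 9 libraries from KO cells and stood at 0.92 in the other one. Cebpb had 1353 to 1634 normalized reads in WT cells, 0 in all 6 dKO libraries and 2538 to 4216 in LAPS cells, which carry a rat construct, so that its reads there are those assigned to the mouse row and its level is not set against WT. The WT and dKO labels were met by the targeted genes in every library. The progenitor markers Ptprc, Spi1, Kit and Mpo were detected in all 15 libraries, in which Mpo ran from 1533 to 77194 normalized reads, and of the 4 hepatocyte markers Alb, Apoa1 and Ttr did not pass 3 reads in a library. The other one, the fetal liver gene Afp, was detected in all 15 libraries, at 27.1 to 36.1 normalized reads in C1 WT, 4.61 to 10.5 in C1 dKO and LAPS, 106 to 165 in C2 WT and 72.9 to 83.7 in C2 dKO cells.

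Type I interferon binds a receptor made of IFNAR1 and IFNAR2, whose kinases are JAK1 and TYK2. They activate ISGF3, a transcription factor that holds STAT2 and IRF9, binds the interferon-stimulated response element and switches on genes that block viral replication. ISGs include the factors of this loop, sensors of foreign RNA and DNA, and effectors such as the IFIT, OAS and Mx proteins. Macrophages and dendritic cells respond strongly, and myeloid cells can also keep a low level of ISG transcription without infection.

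The response element is built from GAAA repeats, so the promoters of the members were read for it before their levels were compared. RefSeq promoter windows (mouse assembly GRCm38.p6, 250 bases before to 50 bases after the start) were given for 30 of the 41 genes. The letters GAAA, 2 bases of any kind and GAAA were searched on both strands, where the other strand reads TTTC, 2 bases and TTTC. Overlapping matches were kept. A match was found for 18 of the 30 members, against 1079 of the 27025 genes in the whole table (3.99%). Over promoters, 20 of 37 of the members' windows (54.1%) and 1131 of all 32851 windows (3.44%) held it. In 15 members the nearest match lay before the start, at 14 to 222 bases (median 75), and 9 of these lay within 100 bases.

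Windows of 60 bases are printed for 6 members that differ in role and in response. They are given 5′ to 3′ on the strand of the gene, with each GAAA or TTTC of a match in capitals.
Isg15, chr4:156200850-156200909, minus strand: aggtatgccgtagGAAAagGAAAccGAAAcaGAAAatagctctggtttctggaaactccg
Ifit1, chr19:34640779-34640838, plus strand: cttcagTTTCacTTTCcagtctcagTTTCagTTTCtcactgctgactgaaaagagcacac
Ifit3, chr19:34583382-34583441, plus strand: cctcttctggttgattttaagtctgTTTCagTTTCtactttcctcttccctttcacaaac
Stat2, chr10:128270251-128270310, plus strand: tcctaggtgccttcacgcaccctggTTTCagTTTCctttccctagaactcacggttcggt
Bst2, chr8:71537562-71537621, minus strand: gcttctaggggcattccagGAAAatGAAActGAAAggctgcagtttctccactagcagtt
Gbp3, chr3:142559980-142560039, plus strand: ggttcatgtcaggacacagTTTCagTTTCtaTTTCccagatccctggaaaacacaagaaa
In Isg15, 4 copies of GAAA followed each other at the same spacing, and the nearest match began 66 bases before the start. Ifit1 held 2 separate matches and the nearest lay 85 bases before the start, Ifit3 held its nearest one at 122 bases and Bst2 at 124 bases. The match in Stat2 was the farthest of the members at 222 bases, and that in Gbp3 lay at 39 bases. Among the factors, Irf9 and Irf7 had no match in their windows, and neither did Ifit2, Oasl1, Oasl2, Herc6, Dtx3l, Cmpk2, Ifi44, Xaf1, Ifi35 and Sp100. A match of letters is not a measured binding site, and a window without one says nothing of sequence outside it.

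Many members are neighbours in the mm10 annotation (GENCODE vM21). Ifit2, Ifit3, Ifit3b and Ifit1 lay in this order on chromosome 19 from 34550694 to 34650009. Oasl2 and Oasl1 lay side by side on chromosome 5, and Oas2, Oas3 and Oas1a followed from 120730333 to 120907521. Rsad2 and Cmpk2 were neighbours on opposite strands of chromosome 12 (26442746 to 26479837). Isg15 lay on chromosome 4 (156199424 to 156200818), Irf7 on chromosome 7 (141262706 to 141266481), Irf9 on chromosome 14 (55603571 to 55610030) and Stat2 on chromosome 10 (128270559 to 128292849). Reads were counted over exons of a gene, and the strand setting is not given in the sources used here. Irf7 shares exon bases with Phrf1, Irf9 with Rnf31, Parp9 with Dtx3l and Ifi203 with Mndal, and Ifit3 and Ifit3b are near-identical copies, so the split of reads between these pairs is uncertain.

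The 3 libraries of C1 WT cells stood apart from the other 12, and also from each other. Summed over the 41 members, C1 WT replicates 1, 2 and 3 had 82828, 56520 and 19689 normalized reads, and the other 12 libraries had 5883 to 7870. These sums were 0.672%, 0.460% and 0.164% of the reads on genes in C1 WT and 0.0484% to 0.0633% elsewhere. The plot of the summed level shows that no C1 WT library reached down to the range of the others, and that the step from 82828 to 19689 inside C1 WT was wider than that from 19689 to the next library.

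**Figure D1:**
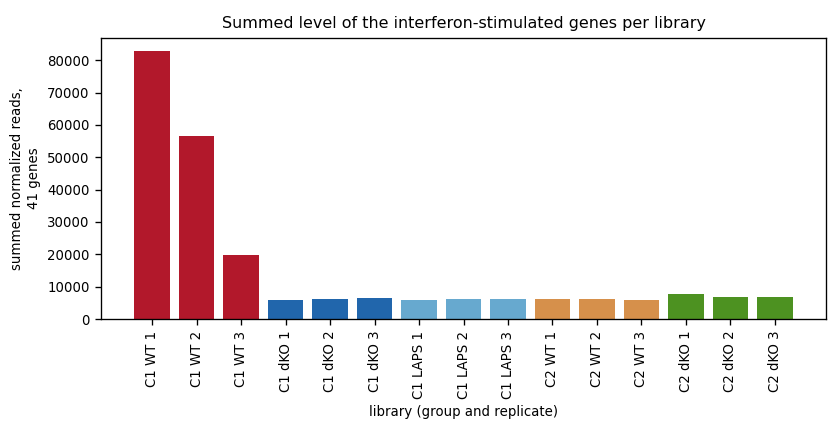
Summed normalized reads of the 41 interferon-stimulated genes in each of the 15 libraries, grouped by clone and genotype. The C1 WT libraries lie at 82828, 56520 and 19689, and all 12 other libraries lie between 5883 and 7870.

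Of the 41 members, 40 were highest in C1 WT replicate 1 and lowest in replicate 3, and Ifi44 was highest in replicate 2. The range over the 3 libraries was at least 2-fold for 39 members, against 12.1% of the 12673 genes tested. Eif2ak2 and Ifi35, with ratios of 1.92 and 1.98 between replicates 1 and 3, were the exceptions. These are values of single libraries, without a test. Replicate 1 was at least 2-fold above replicate 3 for 39 members (4.38% of genes), replicate 2 above replicate 3 for 36 (6.16%), and replicate 1 above replicate 2 for 5 (1.23%). These 5 were Ifit1, Ifit2, Ifit3, Ifit3b and Rsad2. The median member was 4.82-fold higher in replicate 1 than in replicate 3, 3.50-fold higher in replicate 2 than in 3, and 1.45-fold higher in replicate 1 than in 2. Among all tested genes the same median log2 differences were -0.005, 0.01 and -0.001. In the other groups ranges of 2-fold were found for 8 members in C1 dKO (7.53% of genes), 10 in C1 LAPS (7.7%), 8 in C2 WT (8.91%) and 14 in C2 dKO (9.38%). All of those members were low there, at no more than 40.9, 80.2, 14.7 and 15.7 normalized reads in these groups.

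The spread within C1 WT ran over a wide range, and the ranges of the roles overlapped. Oasl1, an OAS-like protein without the synthetase activity, had 325, 190.3 and 18.3 normalized reads in replicates 1, 2 and 3, a ratio of 17.7 between the first and the last. Ifit3b had 143, 62.2 and 10.2 and Rsad2, which encodes the antiviral enzyme viperin, had 2040.5, 928 and 147, with ratios of 14.1 and 13.9. Oasl2, Mx2, Ifit3 and Isg15 followed with ratios of 12.8, 12.3, 12.2 and 11.9. Smaller ratios were found as well, such as 2.26 for Irf9, 2.55 for Dtx3l, 2.96 for Gbp3 and 3.54 for Ddx58. The 15 members with at least 50 normalized reads in all 12 other libraries had ratios of 1.92 to 4.83 (median 3.09). The 19 members under 50 normalized reads in all 12 had ratios of 3.82 to 17.7 (median 10.9, over the 18 with more than 3 reads in replicate 3). The remaining 7 lay between 2.41 and 8.34. The heatmap of all members shows the same split, with effectors such as Ifit1 and Oasl2 changing colour between the C1 WT libraries and Eif2ak2 and Ifi35 changing little.

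**Figure D2:**
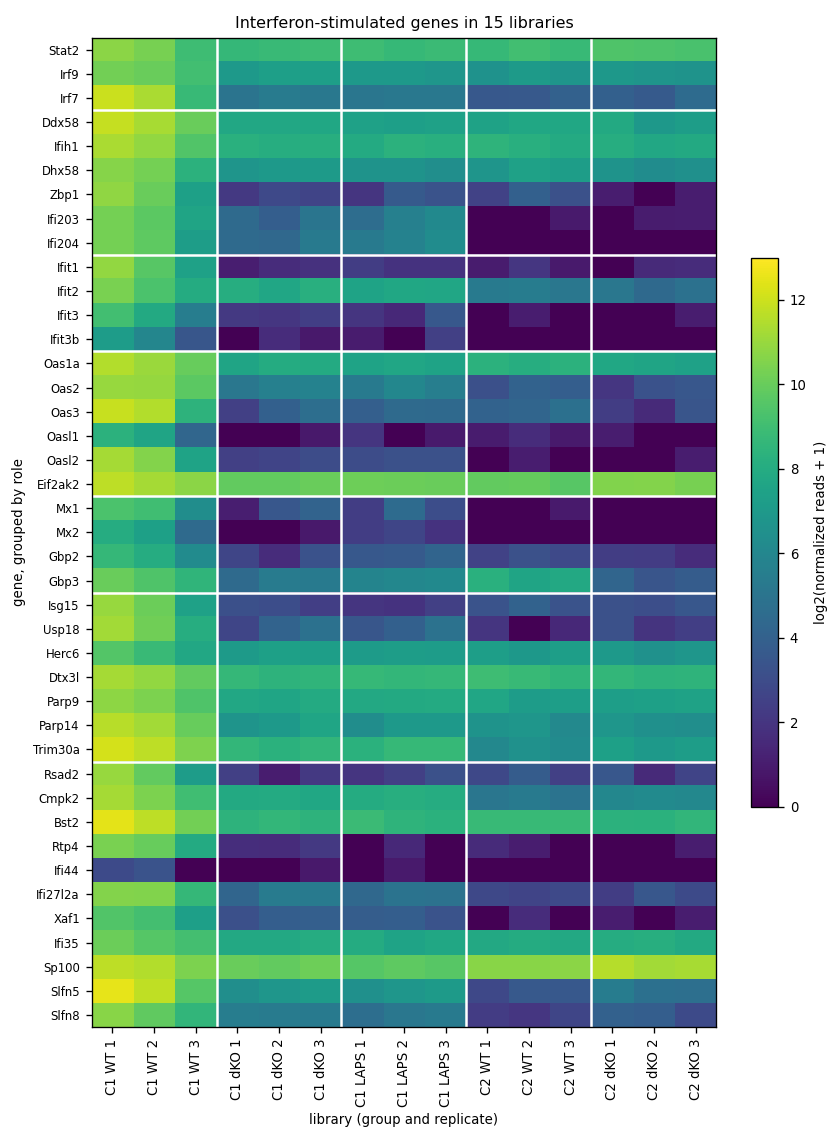
log2(normalized reads + 1) of the 41 interferon-stimulated genes (rows, by role) in the 15 libraries (columns, by group). Levels are highest in the 3 C1 WT columns, with replicate 3 the lowest of these, and are low or near 0 for most effectors in the 12 other columns.

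Even the lowest C1 WT library was above all 12 other libraries for 37 of the 41 members, as it was for 7.79% of the 12673 genes tested. Among the 30 members with enough reads to be tested without C1 WT, it was so for 27. The exceptions were Stat2 (492 in replicate 3 against up to 680.0 elsewhere), Ifit2 (257 against 289), Sp100 (1403 against 3007) and Ifi44, which was listed at 0 in replicate 3. Replicates 1 and 2 were above all 12 others for 40 members (10.4% of genes tested), the exception being Sp100.

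Other genes of the pathway were read from lists of their own. None of the 21 genes for interferon ligands had enough reads to be tested, and the reads on them in all 15 libraries were 2 on Ifnb1 and 1 on Ifnz, both in C1 WT replicate 2. Of 6 receptor chains 5 were tested, and their ratios between C1 WT replicates 1 and 3 were 0.916 (Ifnar2) to 1.06 (Ifnar1). Jak1, Jak2 and Tyk2 stayed below 2-fold. Among 13 sensing genes upstream of interferon the ratio passed 2 for 2, Samhd1 (2.35) and Tlr9. All 9 targets known to lean towards interferon gamma that were detected in the 3 libraries passed it, from 2.84 (Irgm2) to 12.9 (Gbp4), and Cxcl10, a chemokine, had 935, 499 and 162. The plot of the ratios by list shows all gamma targets and the members other than Eif2ak2 and Ifi35 to the right of the 2-fold line, and the receptor and kinase genes around 1.

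**Figure D3:**
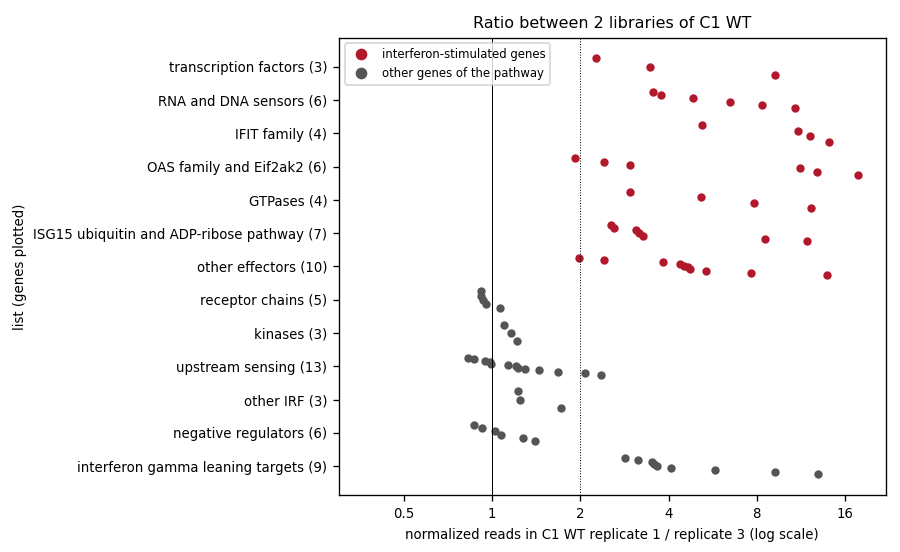
Ratio of normalized reads in C1 WT replicate 1 to replicate 3 (log scale), 1 point per gene with more than 3 reads in each C1 WT library, by list. Members reach from 1.92 to 17.7, the receptor chains from 0.916 to 1.06, and the interferon gamma leaning targets from 2.84 to 12.9.

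Of 8962 genes with a mean of at least 100 normalized reads in C1 WT, 39 were members, and 22 of the 50 with the largest ratio of replicate 1 to replicate 3 were members. Past 4-fold lay 123 tested genes, of which 24 were members. Other genes among the 50 included the interferon-linked Slfn1, Ms4a4c, Gbp9, Ifi206, Ube2l6, Ifitm3, Ddx60, Siglec1 and Isg20, which were named after their values were seen, and also Nos2, Ly6a, Ak4, Aldoc and Bnip3. Within C1 WT, markers of plasmacytoid dendritic cells, the main makers of interferon, did not follow the order of the members. Siglech, Ccr9, Klk1 and Pacsin1 had no more than 3 reads in any C1 WT library, and the 5 markers summed to 9.37, 23.5 and 9.17 normalized reads in replicates 1, 2 and 3. In the other groups this sum was 1.77 to 6.29 in C1 dKO, 0 to 2.03 in C1 LAPS, 6.29 to 23.9 in C2 WT and 18.5 to 40.8 in C2 dKO. The 5 macrophage markers summed to 6091, 6881 and 5338 in C1 WT, which did not follow the order of the members, with C1qa at no more than 3 reads. The 9 progenitor markers summed to 64850, 60473 and 50517, and the 4 neutrophil markers to 11365, 13176 and 15782. In bulk RNA, fewer cells that transcribe a gene and less RNA per cell cannot be told apart.

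The first comparison asked what changed with loss of Cebpa and Cebpb in clone C1. Of the 41 members, 40 were lower in C1 dKO than in C1 WT cells and 0 were higher, against 19.9% lower and 17.1% higher among all 12673 genes tested (limma, Benjamini-Hochberg adjusted p under 0.05). Ifi44, the last member, did not have the 10 normalized reads in 3 libraries needed for a test. Without the C1 WT libraries, 30 members would have passed that filter, so the 10 members that passed through C1 WT alone had to differ. These were Isg15, Ifit1, Ifit3, Ifit3b, Oasl1, Oasl2, Mx2, Rsad2, Rtp4 and Zbp1, and their values and p in each comparison with C1 WT are a description. Of the 40 members tested, 39 were lower with no overlap of the groups, as were 23.5% of all genes tested, and Ifit2 was the exception. The median log2 difference over the members was -4.38, beside -0.015 over all genes.

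Among the factors, Irf7, which amplifies the interferon loop, had 3991, 2627 and 432 normalized reads in C1 WT and 30.6, 42.0 and 36.2 in C1 dKO. Every WT value was more than 10 times every dKO value. Irf7 was 44.8-fold lower in dKO cells (-5.49 ± 0.55, adjusted p = 1.1e-06, given here and elsewhere as the log2 difference ± its standard error with the limma p). Irf9, the DNA-binding part of ISGF3, had 1206, 1058 and 533 in WT and 125, 158 and 158 in dKO cells, a 5.98-fold fall (-2.58 ± 0.23, adjusted p = 3.1e-07). Stat2, the partner of Irf9, had 1697, 1312 and 492 in WT and 405, 453 and 480.1 in dKO cells. The lowest Stat2 value of WT cells was barely above the highest one of dKO cells, and the difference was the smallest of the members (-1.21 ± 0.29, adjusted p = 0.0043). It was not called when only the groups compared were fitted (limma, adjusted p = 0.076).

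The genes of the ISG15 system fell as well. Isg15, a ubiquitin-like modifier, had 2038, 1081 and 171 normalized reads in C1 WT and 7.93, 7.34 and 4.41 in C1 dKO, and was 98.1-fold lower (-6.62 ± 0.61, adjusted p = 4.9e-07). Usp18, which removes ISG15 and dampens receptor signalling, had 2359, 1181 and 277 and 5.66, 16.8 and 27.4, a 61.4-fold fall (-5.94 ± 0.72, adjusted p = 8.9e-06). All 7 members of this group fell. Dtx3l, Parp9 and Parp14, which act in ubiquitin and ADP-ribose marking, had log2 differences of -2.16, -2.42 and -3.81, and Trim30a and the ligase gene Herc6 of -2.95 and -1.45.

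The IFIT proteins bind viral RNA. Ifit1 had 1900.0, 799 and 172 normalized reads in C1 WT and 1.13, 2.10 and 2.65 in C1 dKO, where no library passed 3 reads. The fitted difference was -7.79 ± 0.67, adjusted p = 2.4e-07, in which the dKO values count as measured. Set against a floor of 3 reads per library, the mean of C1 WT gave a fall of at least 282-fold and its lowest library alone one of at least 50.7-fold. Folds written as at least a value are such ratios of a group mean to the floor. Ifit3 had 534, 241 and 43.8 and 3.40, 3.15 and 4.41 and fell by 5.28 ± 0.73 on the log2 scale (limma, adjusted p = 3.2e-05). Ifit3b was at least 21.2-fold lower by the same floor, or 3.00-fold from its lowest C1 WT library alone. Ifit2 differed from its neighbours. It had 1333, 644 and 257 in WT and 273, 203 and 289 in dKO cells, so the third WT library lay inside the dKO range. The difference of Ifit2 was -1.26 ± 0.39, adjusted p = 0.02, and it was lost when C1 WT replicate 1, C1 WT replicate 2 or C1 dKO replicate 2 was left out (limma, adjusted p up to 0.11) and when only the groups compared were fitted (limma, adjusted p = 0.13).

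The OAS enzymes activate an RNase on sensing double-stranded RNA, and Eif2ak2 encodes the kinase PKR. Oasl2 had 2414, 1554 and 189 normalized reads in C1 WT and 4.53, 5.24 and 7.06 in C1 dKO, a 137-fold fall (-7.10 ± 0.68, adjusted p = 7.2e-07). Oas3 had 3799, 2883 and 337 and 4.53, 14.7 and 24.7, a 118-fold fall (-6.89 ± 0.74, adjusted p = 2.5e-06). Oas2 and Oas1a had log2 differences of -5.03 and -3.00, and Oasl1 was at least 52.4-fold lower. Eif2ak2 kept about 969 normalized reads in dKO cells against 2490.0 in WT cells as group means, and was 2.48-fold lower in the fit on the log scale.

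All 6 sensor genes fell. Zbp1, a sensor of Z-form nucleic acid, had 1808, 1049.8 and 167 normalized reads in C1 WT and 3.40, 6.29 and 5.30 in C1 dKO, a 116-fold fall (-6.86 ± 0.69, adjusted p = 1.3e-06). The RNA helicase genes Ddx58, Ifih1 and Dhx58 (RIG-I, MDA5 and LGP2) had log2 differences of -3.29, -2.43 and -2.81 and kept 216 to 222, 269 to 302 and 109.8 to 133 normalized reads in dKO cells. Ifi203 and Ifi204, of the family of DNA sensors with a HIN domain, had log2 differences of -4.74 and -4.38. The 4 GTPase genes fell too. The log2 difference was -5.30 for Mx1, -5.10 for Gbp2 and -4.22 for Gbp3. Mx2 was at least 44.0-fold lower, or 6.30-fold from its lowest C1 WT library alone.

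Of the other effectors, Rtp4 had 1338, 1011 and 249.7 normalized reads in C1 WT and 2.27, 2.10 and 3.53 in C1 dKO, a 195-fold fall (-7.61 ± 0.61, adjusted p = 1.1e-07). Rsad2 stood at 4.53, 1.05 and 3.53 in dKO cells and was 176-fold lower (-7.46 ± 0.76, adjusted p = 1.4e-06). Its neighbour Cmpk2, a nucleotide kinase gene, kept 237, 242 and 216 in dKO cells against 2449, 1388 and 518 in WT, a log2 difference of -2.38. The neighbours thus ended at levels far apart. Bst2, which tethers budding virus to the cell, had 5597, 3371 and 1197 in WT and 336, 387 and 342 in dKO cells, a 7.96-fold fall (-2.99 ± 0.35, adjusted p = 6.5e-06). Per kb of exon, Bst2 had the highest level of the members in C1 WT, with a mean of 3752 normalized reads per kb, followed by Ifi27l2a with 2484 and Isg15 with 1451. In C1 WT replicate 3 alone Bst2 (1326) and Ifi27l2a (880) kept their places. Isg15 (226) lay there below Oas1a (531), Trim30a (348), Eif2ak2 (338) and Ifi35 (315). In C1 dKO the per-kb level of Bst2 was 393 and that of Isg15 was 8.68. Slfn5, Slfn8, Ifi27l2a and Xaf1 had log2 differences of -4.48, -4.26, -4.95 and -5.0, and Ifi35 and Sp100, a gene of nuclear bodies, of -1.66 and -1.22. The plot of 9 members shows each library, with C1 WT replicate 3 nearer to the dKO values than its fellows.

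**Figure D4:**
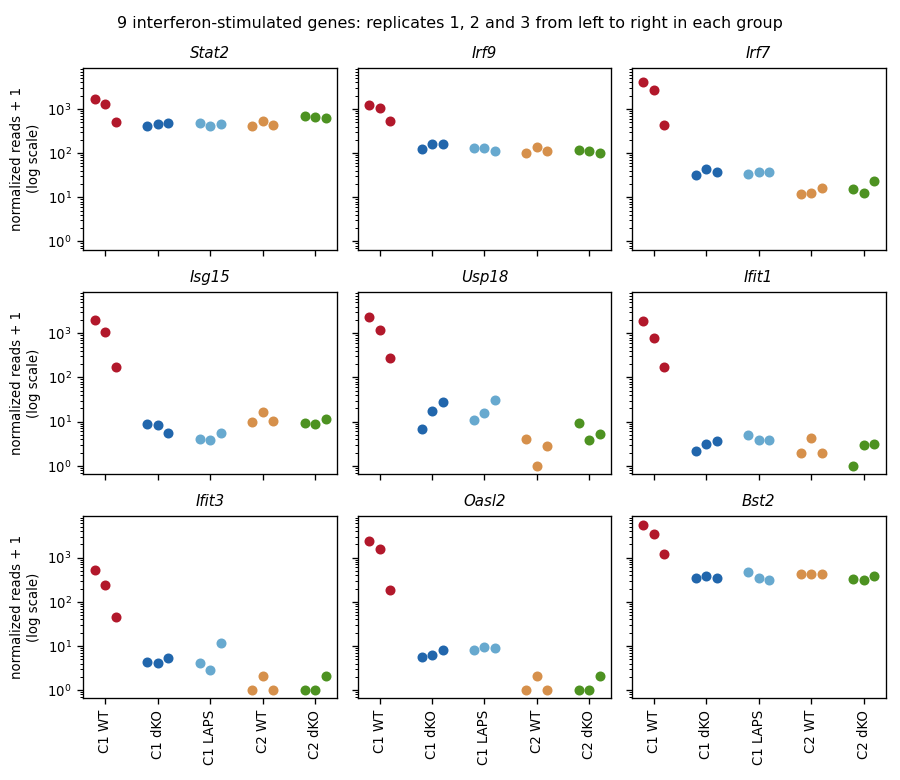
Normalized reads + 1 (log scale) of 9 interferon-stimulated genes in each library, 1 panel per gene, 1 point per library in the 5 groups. Isg15, Ifit1, Ifit3, Oasl2, Usp18 and Irf7 are high in C1 WT and at no more than 42.0 normalized reads elsewhere, while Stat2 stays at 405 to 680 normalized reads in the 12 other libraries.

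Because the C1 WT libraries differed so much, the fits were repeated with C1 WT replicate 3, the lowest one, alone in its group and assumed to vary like the other groups. In that fit 37 members were lower in C1 dKO and 0 were higher (12.8% and 11.1% of all genes tested). The log2 difference was then -4.54 for Isg15, -5.91 for Ifit1, -3.55 for Irf7, -4.86 for Oasl2, -4.21 for Usp18, -3.28 for Ifit3, -1.86 for Irf9 and -1.75 for Bst2. The differences of Stat2 (-0.15, limma adjusted p = 0.55), Ifit2 (-0.03, limma adjusted p = 0.97) and Herc6 (-0.54, limma adjusted p = 0.076) were no longer called. The falls of the 8 members from Isg15 to Bst2 were smaller in this fit and kept their direction.

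Other genes of the pathway also moved in clone C1, the receptor and kinase genes by less than any member called. All 5 receptor chains tested were lower in dKO cells, with log2 differences of -0.31 for Ifnar1 and -0.55 for Ifnar2. Tyk2 (-0.60) and Jak1 (-0.20) were lower, while Jak2 was higher (0.92). Beside the 19.9% of all genes that were lower and the 17.1% that were higher, 9 of 13 sensing genes were lower and 0 higher, and of the 4 other IRF genes only Irf8, a myeloid factor, was lower (-1.58). Of the 6 negative regulators 3 were lower and 1 higher. Among 8 gamma leaning targets 7 were lower, and their differences reached the size of those of the members. Gbp6 was at least 72.7-fold lower by the floor of 3 reads, and Cxcl10 and Gbp5 had log2 differences of -5.72 and -4.35. Ciita, which switches on MHC class II genes, was listed at 0 in C1 WT, and its rise in dKO cells was at least 9.43-fold. The macrophage marker sum was 2236 to 3025 in C1 dKO against 5338 to 6881 in C1 WT, and the 4 neutrophil markers summed to 37887 to 53009 against 11365 to 15782. The 4 mast cell or basophil markers summed to 1709 to 1983 against 73.4 to 106, and the 9 progenitor markers to 94973 to 110818 against 50517 to 64850. The rise of the last sum was that of Mpo, without which the other 8 progenitor markers summed to 33625 to 35817 in C1 dKO and 37823 to 49180 in C1 WT. These 8 did not move together. As group means in C1 WT and dKO, Kit (999 and 2268), Fcgr3 (2450 and 3154) and Itgam (1094 and 1744) were higher in dKO cells. Ly6c2 (27913 and 17957), Ptprc (5090 and 4066) and Hoxa9 (2276 and 1489) were lower, and Spi1 and Meis1 were lower by less. The part of these shifts in the result was not tested.

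The same question in clone C2 gave few called members. The spread was shared by all 15 libraries, so the wide spread of C1 WT entered the standard errors and p-values given for C2. In C2 dKO cells 6 of the 41 members were higher (17.4% of all genes tested) and 2 were lower (20.1%) than in C2 WT cells (limma, adjusted p under 0.05). A fit of only the C2 groups called 7 higher and 6 lower (17.2% and 20% of all genes), and in it Stat2 was added to the higher ones and Dhx58, Oas3, Bst2 and Oas1a to the lower ones. The median log2 difference over the members was -0.004, beside -0.027 over all genes. In C2, 13 members in WT and 13 in dKO cells had no more than 3 reads in any library, so a fall from these levels was not detectable at this depth. The macrophage marker sum was 1034 to 1744 in C2 dKO against 245 to 508 in C2 WT, and the mast cell or basophil marker sum 889 to 1331 against 170 to 180. The markers of a list did not move together. As group means in C2 WT and dKO, Adgre1 rose from 293 to 1421 and Csf1r from 45.9 to 60.8. Mrc1 (11.9 and 1.07) and Mertk (3.22 and 0) fell, and C1qa stayed at 0. Cpa3 (0.99 and 568), Gata2 (67.5 and 549) and Mcpt8 (43.9 and 57.4) rose, and Ms4a2 (61.8 and 8.10) fell. The part of these shifts in the result was not tested.

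Gbp3, a guanylate-binding GTPase, was the member that moved most. It had 309, 192 and 233 normalized reads in C2 WT and 17.8, 9.72 and 12.9 in C2 dKO, without overlap. It was 17.1-fold lower (-4.10 ± 0.34, adjusted p = 2.1e-07), and its fall in clone C1 was 18.6-fold (-4.22 ± 0.34, adjusted p = 1.2e-07). Zbp1 had 4.98, 14.7 and 8.25 in WT and 1.05, 0 and 1.07 in dKO cells and was at least 2.89-fold lower (-2.56 ± 0.69, adjusted p = 0.0084). It started from far fewer reads than in C1 WT cells.

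As a share of the 40 members tested, the 6 that rose lay below the share of all genes. Slfn5, of the Schlafen family, had 5.98, 11.5 and 11.0 normalized reads in C2 WT and 42.9, 27.2 and 25.7 in C2 dKO, a 3.16-fold rise (1.66 ± 0.51, adjusted p = 0.018). Slfn8 had 3.98, 3.15 and 5.50 and 15.7, 13.6 and 6.44, a 2.38-fold rise (1.25 ± 0.42, adjusted p = 0.028). Cmpk2 had 33.9, 38.8 and 30.2 and 64.9, 74.8 and 66.5, a 1.98-fold rise (0.99 ± 0.35, adjusted p = 0.038). These 3 stayed below 100 normalized reads in every C2 library. Trim30a had 66.7, 94.4 and 77.0 and 168, 126 and 151, a 1.87-fold rise (0.90 ± 0.29, adjusted p = 0.024). The remaining members that rose were well expressed: Eif2ak2 had 951, 960.4 and 799 in WT and 1460.4, 1524 and 1295 in dKO cells (0.66 ± 0.16, adjusted p = 0.0041). Sp100 had 1653, 1673 and 1722 and 3007, 2371 and 2547 (0.64 ± 0.22, adjusted p = 0.029). edgeR on the recovered reads called Eif2ak2 and Sp100 higher and Gbp3 lower only (18% and 19.5% of all genes). With each of the 6 C2 libraries left out in turn, the call of Cmpk2 was lost in all 6 fits, that of Sp100 in 5, those of Trim30a and Slfn8 in 4, that of Slfn5 in 2 and that of Eif2ak2 in 0. Eif2ak2 was the single member called higher when C2 WT replicate 1 or C2 dKO replicate 1 was left out.

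None of the 9 members followed through every comparison passed the test in clone C2. Isg15 had 8.96, 15.7 and 9.16 normalized reads in C2 WT and 8.37, 7.78 and 10.7 in C2 dKO (-0.27 ± 0.61, adjusted p = 0.76). Irf7 had 10.9, 11.5 and 15.6 and 14.7, 11.7 and 22.5 (0.30 ± 0.55, adjusted p = 0.7). Their groups overlapped. Irf9 had 98.6, 133 and 109 and 119, 109 and 102 (-0.04 ± 0.23, adjusted p = 0.92). Bst2 had 425, 427 and 432 and 323, 316 and 379.7 (-0.34 ± 0.35, adjusted p = 0.49). Stat2 had 419, 537 and 425 and 680.0, 672 and 615 (0.52 ± 0.29, adjusted p = 0.19). The groups did not overlap for Bst2 or Stat2, and Bst2 was called lower and Stat2 higher when only the groups compared were fitted and with C1 WT replicate 3 alone in its group. Usp18 had 2.99, 0 and 1.83 and 8.37, 2.92 and 4.29 (1.37 ± 0.72, adjusted p = 0.15). Ifit1, Ifit3 and Oasl2 had no more than 3.15 normalized reads in any C2 library, so that no fold is given. Of the other pathway genes, Jak2 was higher (log2 difference 0.74) and Jak1 lower (-0.21), Ifngr1 was the single receptor chain called (-0.45), 3 of 13 sensing genes were higher and 2 lower, and of 8 gamma targets Gbp6 and Cxcl10 were lower. These counts lay near the shares of all genes (17.4% higher and 20.1% lower).

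The difference between the clones was tested directly, as the dKO effect in C2 minus that in C1. This contrast uses the same libraries as both comparisons above. It was higher for 37 members and lower for 0 (15.1% and 14.3% of all genes tested). Of the 37, 11 were at the floor in both C2 groups. There a fall could not be seen and no rise past the floor was found, so the outcome was set by the fall in C1. Also, 10 of the 37 had passed the filter through C1 WT alone. Without either kind, 23 of 26 members were called. For Irf7 the difference of the effects was 5.79 ± 0.77, adjusted p = 4.6e-05. For Usp18 it was 7.31 ± 1.02, adjusted p = 7e-05, but Usp18 was at the floor in C2 WT, so that no fall could be seen in C2 and the value depends on the pseudocount. Irf9 (2.54 ± 0.32, adjusted p = 3e-05), Bst2 (2.65 ± 0.50, adjusted p = 0.00085) and Stat2 (1.73 ± 0.42, adjusted p = 0.0054) had smaller differences. Isg15 (6.34 ± 0.86, adjusted p = 5.5e-05) and Rsad2 (7.03 ± 1.07, adjusted p = 0.00015) are among the 10 that passed through C1 WT alone, so their values are a description. The largest fitted value was that of Ifit1 (7.53 ± 0.95, adjusted p = 2.9e-05), followed after Usp18 by Oasl2 (7.10 ± 0.96, adjusted p = 5.1e-05) and Rtp4 (7.08 ± 0.87, adjusted p = 2.2e-05). These 3, and Ifit3 (5.29 ± 1.03, adjusted p = 0.0011), were at the floor in both C2 groups, so their values follow the fall in C1 and the added pseudocount.
Gbp3 (0.12 ± 0.48, adjusted p = 0.88), Ifit2 (0.75 ± 0.55, adjusted p = 0.34) and Herc6 (1.09 ± 0.41, adjusted p = 0.054) were not called. With C1 WT replicate 3 alone in its group 33 members were called higher (12.3% of all genes), and Mx1, Dhx58, Zbp1 and Ifit3b were lost. edgeR on the recovered reads called 25 members higher (13.9% of all genes), and among the 15 it did not call were Ifit1, Oasl2, Rtp4 and Ifit3. In the plot of both effects Gbp3 and Zbp1 are the members called lower in both clones, and the points span a far wider range in C1 than in C2.

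**Figure D5:**
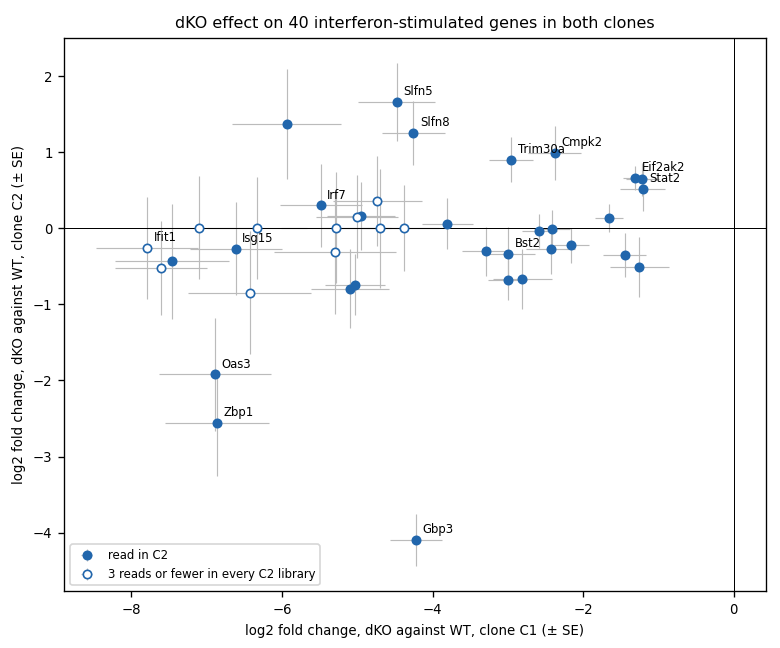
log2 difference of dKO against WT cells in clone C1 (x axis) and in clone C2 (y axis), 1 point per tested interferon-stimulated gene. All 40 points lie below 0 in C1, and in C2 they run from -4.10 (Gbp3) to 1.66 (Slfn5).

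WT cells of the 2 clones were then set side by side, since the clones differed before any deletion. Of the 41 members 39 were lower in C2 WT than in C1 WT cells and 0 were higher (21.3% and 19.7% of all genes tested). Without the 10 members that passed the filter through C1 WT alone, and so had to be lower here, 29 of 30 were called. Sp100 was not called (-0.52 ± 0.22, adjusted p = 0.071). It was called lower by edgeR (adjusted p = 0.03), by DESeq2 and by limma without C1 WT replicate 3. With that replicate alone in its group the log2 difference of Sp100 was 0.262, in the other direction. The median log2 difference was -5.54, or -5.12 when members at the floor took their bound, beside -0.007 over all genes. Slfn5, with 5802, 3494 and 758 normalized reads in C1 WT and 5.98, 11.5 and 11.0 in C2 WT, was 245-fold lower (-7.94 ± 0.51, adjusted p = 6.2e-09). Irf7 was 122-fold lower (-6.93 ± 0.55, adjusted p = 5.4e-08) and Isg15 60.8-fold lower (-5.92 ± 0.61, adjusted p = 1.1e-06). From C1 WT replicate 3 alone in its group the log2 differences were -6.22 for Slfn5, -5.00 for Irf7 and -3.85 for Isg15. Against the floor of 3 reads, Oasl2 was at least 440-fold lower (-9.46 ± 0.68, adjusted p = 2e-08) and Usp18 at least 404-fold lower (-8.68 ± 0.72, adjusted p = 1e-07). Rtp4 was at least 275-fold lower (-8.57 ± 0.61, adjusted p = 2e-08), Ifit1 at least 304-fold and Ifit3 at least 86.7-fold. Xaf1, which promotes apoptosis, was at least 153-fold lower (-8.11 ± 0.55, adjusted p = 1e-08). From the lowest C1 WT library alone the same bounds were 59.9-fold for Oasl2, 88.1-fold for Usp18, 79.4-fold for Rtp4, 54.7-fold for Ifit1, 13.9-fold for Ifit3 and 50.9-fold for Xaf1. Irf9 (-2.95 ± 0.23, adjusted p = 4.5e-08), Bst2 (-2.72 ± 0.35, adjusted p = 1.3e-05) and Stat2 (-1.17 ± 0.29, adjusted p = 0.0047) were lower by less, and for Stat2 the groups overlapped. With C1 WT replicate 3 alone in its group 37 members were called lower (17.4% of all genes), and Gbp3 and Stat2 were lost. Stat2 was also not called when only the groups compared were fitted (limma, adjusted p = 0.073). The macrophage marker sum was 245 to 508 in C2 WT against 5338 to 6881 in C1 WT, and the neutrophil marker sum was 24542 to 40519 against 11365 to 15782. The progenitor marker sum was 31105 to 35674 against 50517 to 64850, and without Mpo 29572 to 32327 against 37823 to 49180. Ptprc (means of 5914 in C2 WT and 5090 in C1 WT) and Hoxa9 (3725 and 2276) went the other way. The part of the markers in the result was not tested.

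A pair of DNA sensor genes had next to no reads in clone C2. Ifi204 had 1249.7, 869 and 149.8 normalized reads in C1 WT and 21.5, 19.9 and 38.0 in C1 dKO, and it was listed at 0 in all 6 libraries of C2. Ifi203 had 1244, 846 and 193 and 21.5, 13.6 and 31.8 in the same C1 groups and no more than 1.07 in C2. They were at least 240-fold and 242-fold lower in C2 WT than in C1 WT (-9.10 ± 0.56, adjusted p = 3.5e-09 and -8.89 ± 0.59, adjusted p = 8.4e-09). From the lowest C1 WT library alone these bounds were 47.6-fold and 61.2-fold. With so few reads in C2 WT, a fall with the deletion was not detectable for this pair, and no rise was seen in C2 dKO. Mx1, Mx2 and Ifit3b, with at most 1 read in any C2 library, stood likewise. Levels outside C1 WT differed between the clones for other members too. Trim30a had 310.5 to 395 normalized reads in C1 dKO and 126 to 168 in C2 dKO, Cmpk2 216 to 242 and 64.9 to 74.8, and Ifit2 203 to 289 and 20.4 to 34.5, without a test of these differences. Sp100 stood the other way, with 952 to 1123 in C1 dKO and 2371 to 3007 in C2 dKO.

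The LAPS cells served to ask whether returning a C/EBPβ isoform brings expression back. No member passed the test between C1 LAPS and C1 dKO cells in either direction (limma), against 1.43% of all genes higher and 3.03% lower. As for C2, the wide spread of C1 WT entered the standard errors and p-values of limma here. At an unadjusted p under 0.05 there were 4 members with limma, 1 with edgeR and 4 with DESeq2, and 1 to 10 over all settings tried, with 10 when only the groups compared were fitted and 9 without C1 WT replicate 3. The share of all genes at this unadjusted limit was not counted, so these counts cannot be set against it. Neither edgeR nor DESeq2 called a member. Isg15 had 3.05, 2.77 and 4.56 normalized reads in LAPS cells (-0.75 ± 0.61, adjusted p = 0.58). Irf7 had 33.5, 36.0 and 36.5 (-0.03 ± 0.55, adjusted p = 0.99) and Irf9 131, 132 and 113 (-0.22 ± 0.23, adjusted p = 0.67). These lay within or beside the dKO values and far below C1 WT. Stat2 had 492, 411 and 463 (0.03 ± 0.29, adjusted p = 0.98), Bst2 468, 354 and 317 (0.08 ± 0.35, adjusted p = 0.94) and Usp18 10.2, 14.8 and 29.2 (0.22 ± 0.72, adjusted p = 0.92). Ifit1 had 4.06, 2.77 and 2.74 (0.52 ± 0.67, adjusted p = 0.75), Ifit3 3.05, 1.84 and 10.9 (0.16 ± 0.73, adjusted p = 0.95) and Oasl2 7.11, 8.30 and 8.21 (0.44 ± 0.68, adjusted p = 0.8). The largest difference was that of the GTPase gene Mx2, with 0, 0 and 0.88 in dKO and 4.06, 5.53 and 2.74 in LAPS cells (2.01 ± 0.67, adjusted p = 0.11). This is a matter of a few reads and was at least 1.21-fold by the floor of 3 reads. Mx2 was called with a pseudocount of 0.1, in the fit of these groups only and without C1 WT replicate 3. Gbp3 had 56.9, 64.5 and 72.0 (0.93 ± 0.34, adjusted p = 0.15) and Gbp2 11.2, 12 and 17.3 against 5.66, 2.10 and 8.83 (1.28 ± 0.52, adjusted p = 0.19), with no overlap of the groups and no call. In all, 8 members were higher and 4 lower in LAPS cells without overlap (10.4% and 13.7% of all genes tested). Among the lower ones, Sp100 had 772, 862 and 779.7 against 1039.7, 952 and 1123 (-0.37 ± 0.22, adjusted p = 0.41), and it was called lower without C1 WT replicate 3 and with that replicate alone in its group.

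Set against C1 WT cells, which enter the earlier comparison as well, the LAPS cells had 40 members lower and 0 higher (18.3% and 14.2% of all genes tested). The 10 members that passed the filter through C1 WT alone had to differ here as well, and without them 30 of 30 were lower. Isg15 (-7.37 ± 0.61, adjusted p = 1.6e-07), Irf7 (-5.51 ± 0.55, adjusted p = 1.1e-06), Usp18 (-5.72 ± 0.72, adjusted p = 1.4e-05) and Ifit3 (-5.12 ± 0.73, adjusted p = 4.5e-05) fell far, and Rtp4 was at least 284-fold lower (-8.95 ± 0.61, adjusted p = 2.1e-08). From the lowest C1 WT library alone the bound for Rtp4 was 81.9-fold. The falls of Ifit1 (-7.27 ± 0.67, adjusted p = 5.3e-07), Rsad2 (-6.78 ± 0.76, adjusted p = 3.9e-06), Oasl2 (-6.66 ± 0.68, adjusted p = 1.5e-06) and Zbp1 (-6.40 ± 0.69, adjusted p = 2.8e-06) were of like size. Bst2 (-2.91 ± 0.35, adjusted p = 9.3e-06), Irf9 (-2.80 ± 0.23, adjusted p = 1.3e-07) and Stat2 (-1.18 ± 0.29, adjusted p = 0.0057) fell by less, and Eif2ak2 had the smallest fall (-1.14 ± 0.16, adjusted p = 4e-05). With C1 WT replicate 3 alone in its group 37 members were lower (12.2% of all genes), and Stat2, Ifit2 and Ifit3b were lost. Stat2 and Ifit2 were also not called when only the groups compared were fitted (limma, adjusted p = 0.094 and 0.076). The 5 receptor chains were not called between LAPS and dKO cells. In LAPS against C1 WT cells the macrophage marker sum was 2251 to 2743 against 5338 to 6881, the neutrophil marker sum 19447 to 22921 against 11365 to 15782 and the mast cell or basophil marker sum 407 to 494 against 73.4 to 106. Their part in the result was not tested.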

How the data were processed

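RNA-seq of 15 libraries was analysed in 5 groups of 3, each group taken from the GEO labels. The authors made stranded paired-end libraries, aligned reads to mm10 with STAR 2.5.3a, counted reads per gene with HTSeq 0.10.0 and normalized the counts with DESeq2 1.26.0 (versions from the submitters' processing notes). The deposited signal is a read count that the authors divided by 1 size factor for each library (normalized reads). The annotation is not given in the sources used here. The table held 15 columns matched to samples, 3 columns headed as LAPS of clone C2 that matched no sample and were not used, and 5 rows of HTSeq totals that took 22.45% to 26.19% of the reads and were left out.

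Every column had a common step, and 100% of its values up to 2000 reads lay within 0.1 of a whole read. Size factors recovered from it ran from 0.747 to 1.13, and reads on genes from 9212237 to 13613500 (median 11885279). The values were put on the scale log2(normalized reads + 1) and fitted with limma 3.58.1 (R 4.3.3, trended prior), where each of the 5 groups had its own mean and all 15 libraries shared the estimate of spread. This scale understates the change of low genes. A gene was tested with 10 or more normalized reads in 3 or more libraries (12673 of 24520 genes with a read). Calls were made at an adjusted p (Benjamini-Hochberg, over all genes tested) under 0.05. Because the deposited values are not counts, the whole reads recovered from them were also tested with DESeq2 1.42.0 and with edgeR 4.0.16 (quasi-likelihood, TMM). In C1 dKO against C1 WT edgeR called 2219 genes higher and 2460 lower, limma 2170 and 2516. The limma, edgeR and DESeq2 fits were tested on simulated counts, except for the difference between the clones and LAPS against WT. The other steps were not tested in this way.

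The members and all lists were chosen with earlier results of these data known. The genes given in full were Isg15, Ifit1, Ifit3, Irf7, Irf9, Stat2, Oasl2, Bst2 and Usp18, and per comparison the 6 called members with the largest log2 difference among those whose groups did not overlap. Other members are described by role. A single gene was left out of the pathway lists and is not reported here. A group with no more than 3 reads in any library was at the floor, and a fold against it is a lower bound that covers counting error only. Promoter sequences came from RefSeq, gene positions from GENCODE vM21. Other settings were pseudocounts of 0.1 and 5, no filter, quantile normalization, only the groups compared, a replicate block and each library left out. A fit with C1 WT replicate 3 alone in its group was added after seeing the data. Python 3.11.15, matplotlib 3.10.9, pandas 2.3.3 and numpy 2.4.6 gave the tables and plots.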

Additional observations from a re-analysis of the deposited data

Results flagged for a closer look

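The dKO effect differed between clones C1 and C2 for 37 of the 40 interferon-stimulated genes tested, all higher in C2 minus C1, by limma on the difference of the effects itself (adjusted p under 0.05). Among all genes tested 15.1% were higher. The difference, C2 minus C1 on the log2 scale, was 7.53 for Ifit1, 7.31 for Usp18, 7.10 for Oasl2, 7.08 for Rtp4, 7.03 for Rsad2, 6.34 for Isg15, 5.79 for Irf7, 5.29 for Ifit3, 2.65 for Bst2, 2.54 for Irf9 and 1.73 for Stat2. In each case the fall was in clone C1. Of the 37, 11 had no more than 3 reads in any C2 library (Ifit1, Ifit3, Ifit3b, Oasl1, Oasl2, Mx1, Mx2, Rtp4, Xaf1, Ifi203 and Ifi204), so that no fall could be seen there and the outcome was set by clone C1. Usp18 was at that level in C2 WT. Also, 10 of the 37, Isg15 and Rsad2 among them, passed the filter on low values through C1 WT alone. Without either kind, the difference was called for 23 of 26 members. It was called for 25 of all members by edgeR (13.9% of all genes), and for 33 with C1 WT replicate 3 alone in its group (12.3%).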

How the results depend on the processing

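The 164 calls made on single members were repeated under each setting, and no direction reversed. Fewer passed the test with edgeR (18 lost), DESeq2 (5), only the groups compared (5), a pseudocount of 5 (2) or 0.1 (1), and C1 WT replicate 3 alone in its group (12). Quantile normalization, no filter and the replicate block lost none. With the replicate block the counts stayed at 40 lower in C1 dKO, 6 higher and 2 lower in C2 dKO, 37 between the clones, 0 for LAPS against dKO, 40 for LAPS against WT and 39 for C2 WT against C1 WT. Of the 12673 genes tested the block fit called 2449 lower in C1 dKO, 2150 higher and 2469 lower in C2 dKO and 1866 higher between the clones. It called 150 higher and 338 lower for LAPS against dKO, 2249 lower for LAPS against WT and 2613 lower for C2 WT against C1 WT. Correlations of same-numbered libraries across groups ran from -0.174 to 0.297. Differently numbered libraries were not correlated beside them, so whether the replicate numbers pair the samples is not known. The counts of C2 dKO against C2 WT were the least stable. Members higher were 2 with edgeR and 1 to 7 with a library left out, with 1 left without C2 WT replicate 1 or C2 dKO replicate 1. Of all genes, 2278 with edgeR and 1822 to 2322 with a library left out were higher. Members lower were 1 with edgeR or a pseudocount of 5, 6 with only the groups compared, and 2 to 5 with a library left out, the 5 being without C1 WT replicate 3. Of all genes, 2470 were lower with edgeR, 2569 with a pseudocount of 5, 2535 with only the groups compared and 2023 to 2708 with a library left out. LAPS against dKO gained 1 member higher, Mx2, with a pseudocount of 0.1 or only the groups compared (149 and 86 of all genes). With a library left out it had 0 to 1 higher and 0 to 1 lower (75 to 259 and 196 to 469 of all genes). Mx2 was called higher and Sp100 lower without C1 WT replicate 3. The cause of these moves was not tested. Over all genes, quantile normalization turned the split of calls in C1 dKO against C1 WT from 2170 higher and 2516 lower to 2681 and 2052, and in LAPS against WT from 1796 and 2322 to 2521 and 1910. The split also turned in C2 dKO against C2 WT (2211 and 2549 to 2416 and 2289) and C2 WT against C1 WT (2493 and 2699 to 2886 and 2378). Between the clones it went from 1910 and 1810 to 1752 and 1923. Depth limits the members at the floor, 13 in each C2 group.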
